A study of Homo sapiens with 19 samples.

Results

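The HIPK and DYRK kinases were followed through every library of a study of stress granules (SGs) in SH-SY5Y cells, a human neuroblastoma line. The 9 genes, 4 HIPK (HIPK1 to HIPK4) and 5 DYRK (DYRK1A, DYRK1B, DYRK2, DYRK3 and DYRK4), were taken by gene ID from the 19942 genes of the deposited gene tables, and their 81 transcripts from the 256980 of the transcript table. They were chosen by family, with HIPK2 picked for its large SG to Total ratio, so that ratio is given here as a description. Cells were treated with a control siRNA (siCtrl) or with siRNA to G3BP1 (siG3BP1) or G3BP2 (siG3BP2), both core SG proteins. Cells stressed with sodium arsenite (AS) gave a cleared lysate (Total) and SG cores (SG), pulled from the rest of that lysate with an antibody to G3BP1. The siRNA, Total and SG libraries were poly-A RNA-seq, and untreated and AS-treated cells were also sequenced after depletion of rRNA. Each of these 7 RNA-seq conditions had 1 library, so none of their differences has a replicate check or a p-value. RNA crosslinked to G3BP1 or G3BP2 was sequenced by eCLIP from untreated (Ctrl) cells and from cells given AS, and each of the 4 groups had 2 libraries. The labels give AS as 500 µM for 1 h for the AS-treated rRNA-depleted library and give none for the untreated one. All other libraries are labelled 50 mM for 1 h, those named as controls included. The labels alone thus do not settle the treatment of the siRNA libraries. The study's methods state an AS exposure of 500 µM for 1 h and name no AS step in the knockdown. The labels do not say whether duplicates came from separate cultures, and p-values then measure the spread between these libraries, which may be technical.

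Both families belong to the CMGC group of protein kinases. HIPKs (homeodomain-interacting protein kinases) are mostly nuclear serine/threonine kinases, and HIPK2 is best known for its part in the response to severe DNA damage. DYRKs phosphorylate a tyrosine of their own activation loop while they are being made and then act on serine and threonine. DYRK3 is known to control the dissolution of SGs and other condensates, and DYRK1A phosphorylates tau and inhibits NFAT signalling.

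By their annotated canonical transcripts, the mRNAs fell into a long and a short class. Which forms the cells held was not tested. The canonical transcripts of DYRK1A (17024 nt), HIPK2 (15329 nt), DYRK2 (8888 nt), HIPK1 (8201 nt), DYRK3 (8128 nt) and HIPK3 (7614 nt) were all longer than 91.5% of the canonical transcripts of 19892 genes, whose median was 2891.5 nt. DYRK1B (2496 nt), HIPK4 (2446 nt) and DYRK4 (2065 nt) lay below that median. Most of the difference was 3′UTR, which measured 13827 nt in DYRK1A and 11357 nt in HIPK2 but 365 nt in DYRK1B, 316 nt in HIPK4 and 122 nt in DYRK4. Coding sequences spanned a narrower range, from 1767 nt in DYRK3 to 3648 nt in HIPK3. DYRK1B and HIPK4 were also the richest in GC, at 63.9% and 62.8% of the transcript, against a median of 49.2% over all genes.

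The study's consensus for G3BP binding is a palindrome with 2 forms, CCAGGCTGG and CCAGCCTGG in DNA letters, which are reverse complements of each other, so that a search for both covers both strands. Matches were found in the canonical transcripts of 3 of the 9 kinases, against 28.0% of canonical transcripts of all genes. All 7 matches lay in the last exon, in the 3′UTR. DYRK1A held 4 of them, DYRK3 held 2 and HIPK2 held 1. The match of HIPK2 and 1 match of DYRK1A, whose canonical transcripts are the 2 longest, are shown with 10 bases on each side. They run 5′ to 3′ on the transcript, from GENCODE on GRCh38, with the match in capitals.
HIPK2, exon 15, chr7:139567735-139567743, minus strand: cttctgcaggCCAGCCTGGgactccacag
DYRK1A, exon 12, chr21:37518124-37518132, plus strand: aagtgatcctCCAGCCTGGgcctctcaaa
A match is a description of the sequence, and no binding at these positions was measured here. HIPK1, HIPK3 and DYRK2 held none in the canonical transcript. Over the whole gene with its introns, HIPK2 held 109 matches in 216 kb and DYRK1A held 52 in 161 kb, while DYRK1B held 0 in 8.85 kb, and 87.4% of all genes held at least 1. Per 100 kb of span that was 50.4 in HIPK2 and 32.3 in DYRK1A, against 42.4 pooled over all genes. HIPK4 had the highest density of the 9, at 174 per 100 kb.

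Levels are given in TPM, which is corrected for transcript length and scaled to a fixed total per library. The deposited genes, which code for protein, are a part of that total. They summed to 646450 TPM in siCtrl, 623955 in Total and 735927 in SG. In siCtrl cells DYRK1B, a kinase linked to cell quiescence, was the highest of the 9 at 39.1 TPM. HIPK2 (9.65 TPM), DYRK4 (9.16), DYRK3 (8.96), HIPK1 (7.97) and DYRK2 (7.86) lay close together, and with 1 library their order cannot be set against a spread. DYRK1A was at 3.46, HIPK3 at 1.69 and HIPK4, mainly a testis kinase, at 0.245 TPM. DYRK1B remained the highest member in siG3BP1, siG3BP2 and Total, with between 44.3% and 49.7% of the summed TPM of the 9 kinases. In SG that order was another. HIPK2 alone held 58.2% of the kinase sum there, against 3.41% in Total, and the sum itself was 1003 TPM against 53.1.

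**Figure D1:**
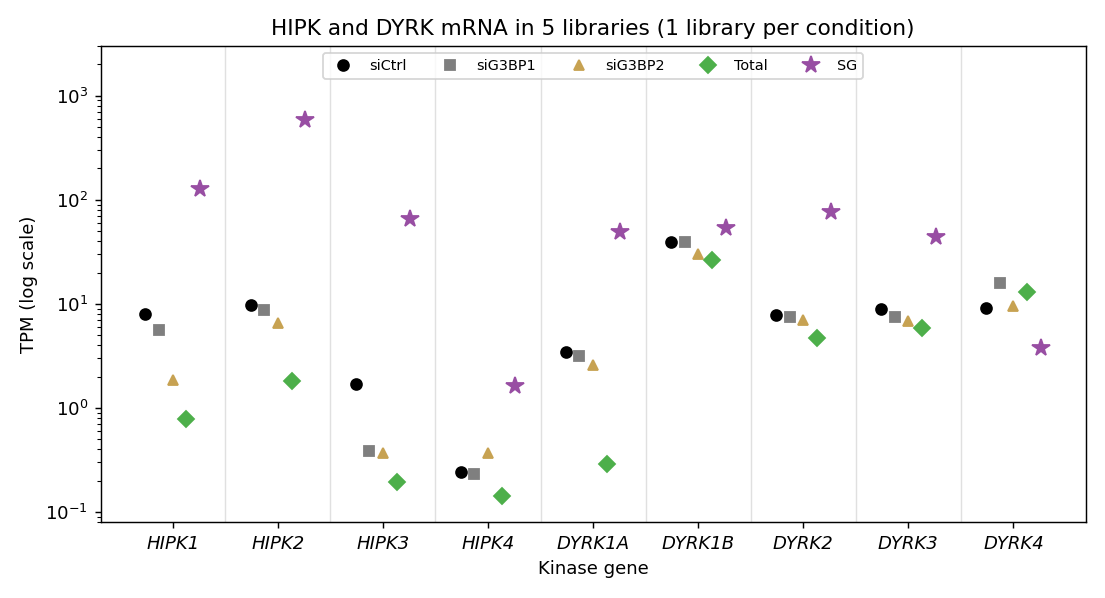
TPM of each kinase gene on a log axis in the 5 poly-A libraries, 1 point per library and gene. The SG star lies above the Total diamond for 8 genes, by most in HIPK3 and HIPK2, and below it for DYRK4 (3.76 against 12.9 TPM).

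The comparison of SG with Total asks which mRNAs are concentrated in SG cores. A gene was called SG-enriched when its fold change of TPM + 1 was above 2 with over 1 TPM in SG, and SG-depleted when it was below 0.5 with over 1 TPM in Total. By these limits 7 of the 9 kinases were SG-enriched, where the share over all 13560 genes above 1 TPM in either library was 62.9%. DYRK4 was SG-depleted, as were 9.45% of all genes. The median log2 fold change of the 9 kinases was 3.75 and that of all genes 1.51, which means that a typical gene was itself higher in SG. Because HIPK2 was chosen on this contrast, nothing is read from these counts.

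Among the HIPKs, HIPK2 was at 584 TPM in SG against 1.81 in Total. HIPK1, a close relative of HIPK2 that also binds DAXX, had 0.787 TPM in Total and 126 in SG. HIPK3 had 0.196 TPM in Total and 65.9 in SG, a plain ratio of 336 that exceeded the 322 of HIPK2. On the log2(TPM + 1) scale the changes were 7.70, 6.15 and 5.81 for HIPK2, HIPK1 and HIPK3, ranks 1, 47 and 101 of the 13560 genes. The order of HIPK2 and HIPK3 thus turned on whether a pseudocount was added, since HIPK3 was under 1 TPM in Total. HIPK4, with 0.142 TPM in Total and 1.64 in SG, was the enriched member nearest the limit (fold of TPM + 1 of 2.31).

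Among the DYRKs, DYRK1A stood nearest to the long HIPKs, with 0.293 TPM in Total and 49.0 in SG, a log2 fold change of 5.27. DYRK2, the scaffold of a ubiquitin ligase complex, had 4.72 and 76.0 TPM (3.75 on the log2 scale). DYRK3 had 5.87 TPM in Total and 44.1 in SG, which gave 2.72 on that scale. DYRK1B had 26.4 and 53.0 TPM and fell just short of the limit, at a fold of TPM + 1 of 1.97. On the log2 scale that was 0.98, below the median of 1.51 over all genes. DYRK4, a little studied kinase found mainly in testis, had 12.9 TPM in Total and 3.76 in SG, a log2 fold change of -1.54.

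**Figure D2:**
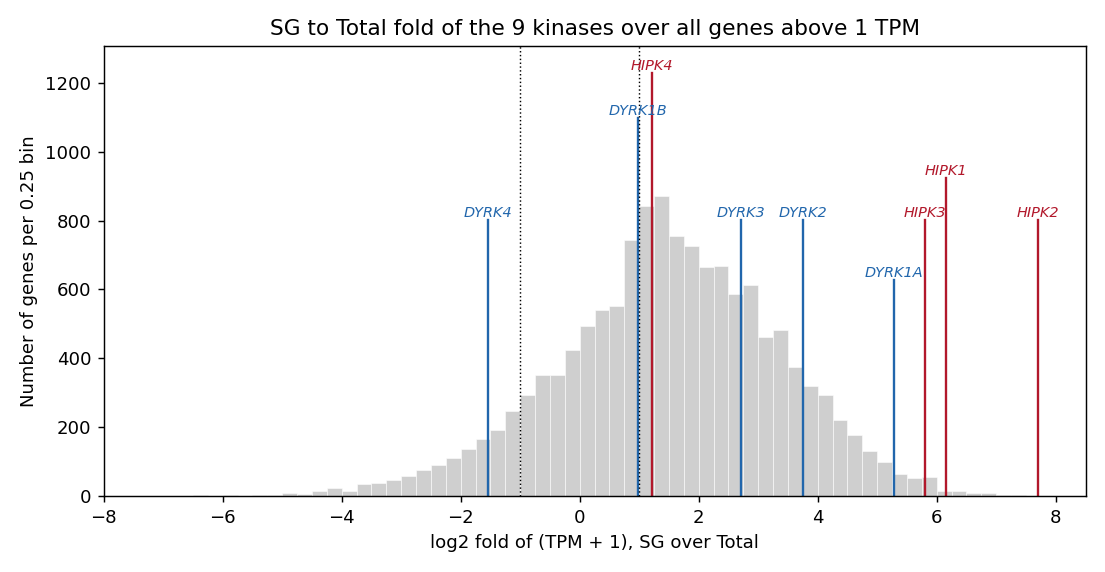
Log2 fold change of TPM + 1 in SG over Total for all genes above 1 TPM in either library that have an annotated length (grey bars, genes per 0.25 bin), with lines for HIPK (red) and DYRK (blue) genes whose heights carry no value. Dotted lines mark the limits of 2 and 0.5, and the kinases reach from -1.54 (DYRK4) to 7.70 (HIPK2).

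On the log2(TPM + 1) scale the 6 kinases with long transcripts all had higher folds than the 3 with short ones. By plain ratio the short HIPK4, at 0.142 TPM in Total, stood at 11.6, above the long DYRK3 at 7.52. Within the long class the order of folds was not that of length. Across 13548 genes Spearman's rho between the log2 fold change and the length of the canonical transcript was 0.696, given as a description since genes are not independent and share both libraries. The median log2 fold change was -0.30 over the 3387 genes with the shortest transcripts and 3.20 over the 3386 with the longest. For the kinases the values can be set beside the genes nearest in length, cut into 20 bins. DYRK2, HIPK4 and DYRK1B lay within 0.39 of the median of their bins. HIPK2 lay 3.94 above its bin, HIPK1 2.51, HIPK3 2.16 and DYRK1A 1.52 above theirs. DYRK3 lay below its bin of 677 genes, at 2.72 against a median of 3.65, and DYRK4 at -1.54 against 0.66. DYRK1A and HIPK2 shared the longest bin, of 678 genes, with a median of 3.76. It ran from 9454 to 34626 nt with a median length of 11442 nt, below the length of either kinase. Their excess over that bin is thus not one over genes of like length. In plain TPM HIPK2 had 584 in SG and DYRK1A 49.0. The part of length in these values was not tested.

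**Figure D3:**
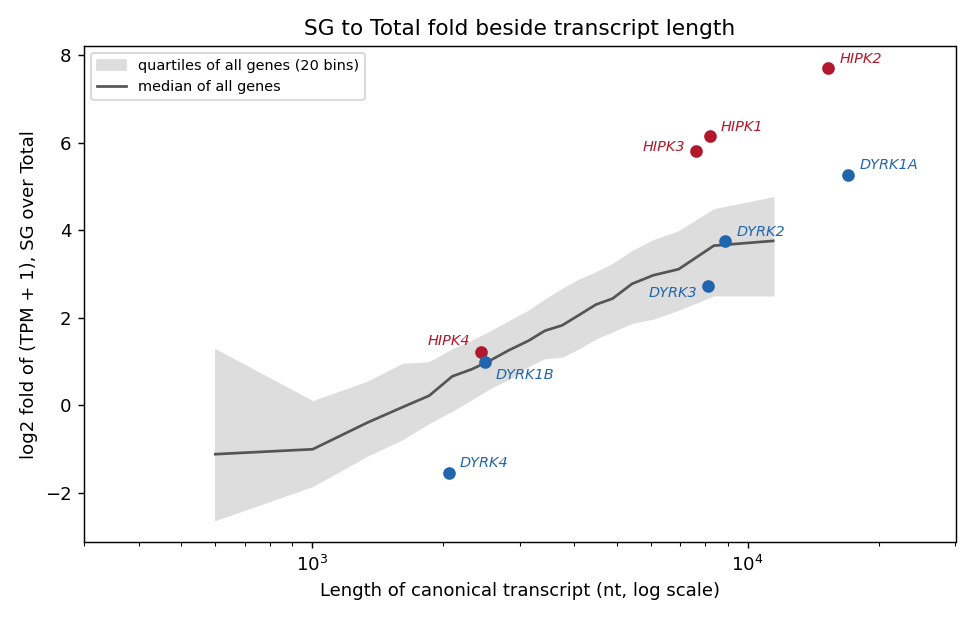
Log2 fold change of TPM + 1 in SG over Total against the length of the canonical transcript (log axis), with HIPK genes in red, DYRK genes in blue, and the median (line) and quartiles (grey band) of all genes in 20 length bins. HIPK1 and HIPK3 lie above the band and DYRK4 below it. The band ends at 11442 nt, the median length of the longest bin, and HIPK2 and DYRK1A lie beyond that end.

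The large ratios came from low values in Total as well as from high values in SG. Against siCtrl cells, HIPK1, HIPK2, DYRK1A and HIPK3 differed in Total by -2.33, -1.92, -1.79 and -1.17 on the log2(TPM + 1) scale, where the median of all genes was -0.41. DYRK1B, DYRK2 and DYRK3 differed by -0.55, -0.63 and -0.54, nearer to that median, and DYRK4 by 0.45. Set against siCtrl in place of Total, the SG values of HIPK2, HIPK3 and HIPK1 were higher by 5.78, 4.63 and 3.83. Total is a cleared lysate from AS-treated cells, so clearing, treatment and library cannot be told apart in that comparison. In bulk libraries of this kind a change in RNA per cell and a change in the share of cells that hold it cannot be told apart either.

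The genes whose levels over the 5 poly-A libraries were most like those of HIPK2, by Euclidean distance of log2(TPM + 1) among 19941 genes, were HMBOX1 (0.99), KMT2D (1.08) and ZNF704 (1.20). They had between 344 and 366 TPM in SG and between 1.70 and 4.20 in Total. Of the kinases HIPK1 was the nearest, at rank 218 with a distance of 2.76, followed by DYRK2 at rank 421. HIPK3 was at rank 4890, apart from HIPK2 mainly by its lower level.

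The knockdowns ask whether kinase mRNA depends on the SG proteins. The targets themselves were lower. G3BP1 went from 18.7 TPM in siCtrl to 5.996 in siG3BP1, and G3BP2 from 38.1 TPM to 11.4 in siG3BP2. Both comparisons share the siCtrl library, so their values are set side by side and no likeness between them is read. None of the 8 kinases that reached 1 TPM was called in siG3BP1, where 1.12% of 12280 genes were called higher and 1.98% lower. In siG3BP2, HIPK1 was called lower, where 2.89% of 12229 genes were and 1.23% were higher.

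HIPK1 had 7.97 TPM in siCtrl, 5.67 in siG3BP1 and 1.85 in siG3BP2, or 0.712 and 0.232 of the siCtrl level. HIPK3 had 1.69, 0.385 and 0.368 TPM, which is 0.227 and 0.217 of the siCtrl level. It was not called, because its folds of TPM + 1 were 0.514 and 0.508, just outside the limit of 0.5. HIPK2 lay closer to siCtrl than these, at 9.65, 8.78 and 6.57 TPM. The long DYRKs had ratios to siCtrl between 0.751 and 0.942. DYRK1A had 3.46, 3.15 and 2.60 TPM, DYRK2 had 7.86, 7.40 and 7.03, and DYRK3 had 8.96, 7.42 and 6.92. DYRK1B had 39.1, 38.9 and 30.3 TPM. DYRK4 was the member with the highest ratio in siG3BP1, at 15.9 against 9.16 TPM, and had 9.61 in siG3BP2. HIPK4 was below 1 TPM in all 3 libraries and is not compared. The median over all genes was -0.08 in siG3BP1 and -0.12 in siG3BP2 on the log2 scale.

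The rRNA-depleted libraries ask how AS changes RNA levels. Their values are RPKM (reads corrected for transcript length and library size) for each transcript, and nearly all are whole multiples of 1 read, so that reads could be recovered. A read counts for every transcript it overlaps, so transcripts of a gene share reads, and the transcript with the most reads is given for each gene. Ratios carry 95% exact intervals (Clopper-Pearson), which cover counting error only and say nothing of the spread between cultures. HIPK2-202 had 2387 reads in untreated and 1580 in AS-treated cells, or 11.7 and 9.14 RPKM, a ratio of 0.780 (0.731 to 0.831). All 3 HIPK2 transcripts were lower after AS, and HIPK2 was the single kinase of the 9 whose summed RPKM was lower.

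HIPK3-201 had 312 reads in untreated and 466 in AS-treated cells, an RPKM ratio of 1.76 (1.52 to 2.04). DYRK1A-221 had 662 and 952 reads, a ratio of 1.69 (1.53 to 1.87), and 22 of its 23 transcripts were higher. DYRK2-202 had 581 and 742 reads, a ratio of 1.505 (1.35 to 1.68). These 3 kinases thus had counting intervals above the median gene, which was itself higher after AS by 0.27 on the log2 scale. DYRK3-203, with 374 and 418 reads, had a ratio of 1.32 (1.14 to 1.52), and HIPK1-205, with 666 and 691 reads, had 1.22 (1.10 to 1.36). Set to the median of all genes, the summed HIPK1 value turned from 0.25 to -0.03 on the log2 scale, while that of HIPK2 went from -0.25 to -0.52. DYRK4-211 had 45 and 49 reads, and its interval of 0.838 to 1.97 left the direction undetermined at this depth.

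Values summed over the transcripts of a gene passed the limits of 2 or 0.5 for 0 of the 8 kinases that reached 1 RPKM. Over all genes, 3.64% of 12683 were called higher and 0.56% lower. The summed ratios of HIPK3 and DYRK1A were 1.81 and 1.78. HIPK4 had 0 reads in untreated and 12 in AS-treated cells. Against a floor of 3 reads in the untreated library the ratio was 4.71, and with the counting error of both libraries it was at least 3.27-fold higher, the lower end of the 95% exact interval. The HIPK4 gene lies over 10202 of its 10911 bases opposite PLD3, and since the counting is not stated to use strand, its reads cannot be told from those of PLD3.

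**Figure D4:**
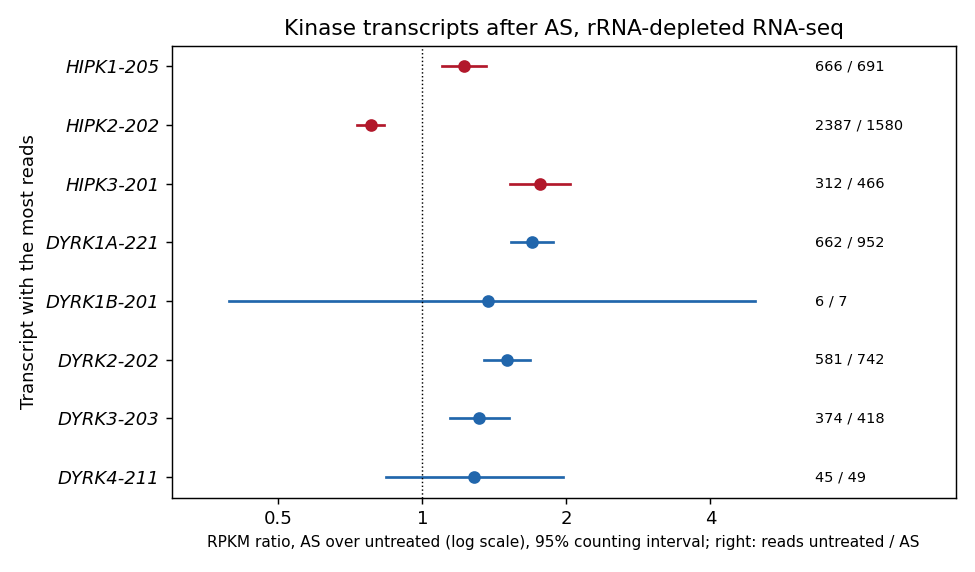
Ratio of RPKM in AS-treated over untreated cells (log axis) for the transcript with the most reads of 8 kinases, with 95% exact counting intervals and the reads of both libraries at the right. HIPK2-202 lies below 1, HIPK1, HIPK3, DYRK1A, DYRK2 and DYRK3 above it, and the intervals of DYRK1B and DYRK4 span 1. HIPK4, with 0 reads in untreated cells, is left out.

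DYRK1B, the highest kinase by poly-A RNA-seq, was almost missing here. DYRK1B-201 had 6 reads in untreated and 7 in AS-treated cells, or 0.181 and 0.249 RPKM, against 39.1 TPM in siCtrl. The log2 ratio of its highest RPKM to the siCtrl TPM was -7.38 (with 0.05 added to both), lower than in all but 0.902% of 11978 genes, whose median was -1.88. The tenth of genes with the highest GC had a median of -3.23, and DYRK1B is 63.9% GC, so GC moved with the ratio over all genes and its part in DYRK1B was not tested. DYRK1B also overlaps a second annotated protein-coding gene on the same strand over 1475 bases, and how the reads were divided between them is not stated. The other 7 kinases above 1 TPM had ratios between -1.31 (DYRK4) and 1.48 (HIPK3 and DYRK1A). DYRK1B levels are therefore those of the poly-A libraries alone. DYRK4 shares 10359 bases with a further protein-coding gene on its strand, with the same limit.

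In the eCLIP table a gene has 1 value per library, the log10 of some whole number to which 1 was added, with no correction for length. The whole numbers sum to between 4268911 and 26179736 per library, replicate 2 being the smaller in every group. DYRK1A had the highest value of the 9 kinases in all 8 libraries and HIPK2 the second highest in all 8. For G3BP1, DYRK1A had 3.89 and 3.38 in the 2 untreated libraries and 3.84 and 3.05 after AS. For G3BP2 it had 3.91 and 3.60 untreated and 3.89 and 3.36 after AS. HIPK2 had 3.41 and 2.84, then 3.39 and 2.66, for G3BP1, and 3.43 and 3.06, then 3.43 and 3, for G3BP2. In each group replicate 1 was the higher for both genes, as for the library totals.

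Across 19910 genes Spearman's rho between this value and the span of the gene with its introns was between 0.831 and 0.857 in the 8 libraries, a description over genes that share a library, so levels are compared per kb of gene span. RNA level was not corrected for, so RNA amount and binding cannot be told apart in these values. Per kb of span DYRK1A led in all 8 libraries, with 6.97 to 50.5, where the median over all genes was 1.66 to 10.4. Averaged over replicates it exceeded between 96.4% and 97.4% of 19910 genes in the 4 groups. HIPK1 had 5.40 to 23.6 per kb and was the next in 7 of 8 libraries, with DYRK4 above it in AS G3BP1 replicate 1 (16.4 against 14.6). Per kb of canonical transcript, averaged over the 8 libraries, HIPK1 (80.4) lay below DYRK1A (296), DYRK4 (290), HIPK2 (112) and HIPK3 (111). HIPK2, the longest gene of the 9, had 2.11 to 12.4 per kb and exceeded between 57.1% and 59.4% of genes. HIPK3 (2.61 to 16.2), DYRK2 (3.34 to 15.0), DYRK3 (1.00 to 10.7) and DYRK4 (1.96 to 21.1) spanned ranges that include the difference in library totals, and their order was not the same in each library. HIPK4 had 0.917 to 4.95 per kb. DYRK1B was listed at 0 in both untreated G3BP1 libraries and in 1 of the 2 after AS, and had 0.791 to 3.16 per kb in the others. Within libraries, the SG-depleted DYRK4 was above HIPK2 per kb of span in 7 of 8. How eCLIP reads were counted where HIPK4, DYRK1B and DYRK4 overlap other genes is not stated either, so their values carry that limit.

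**Figure D5:**
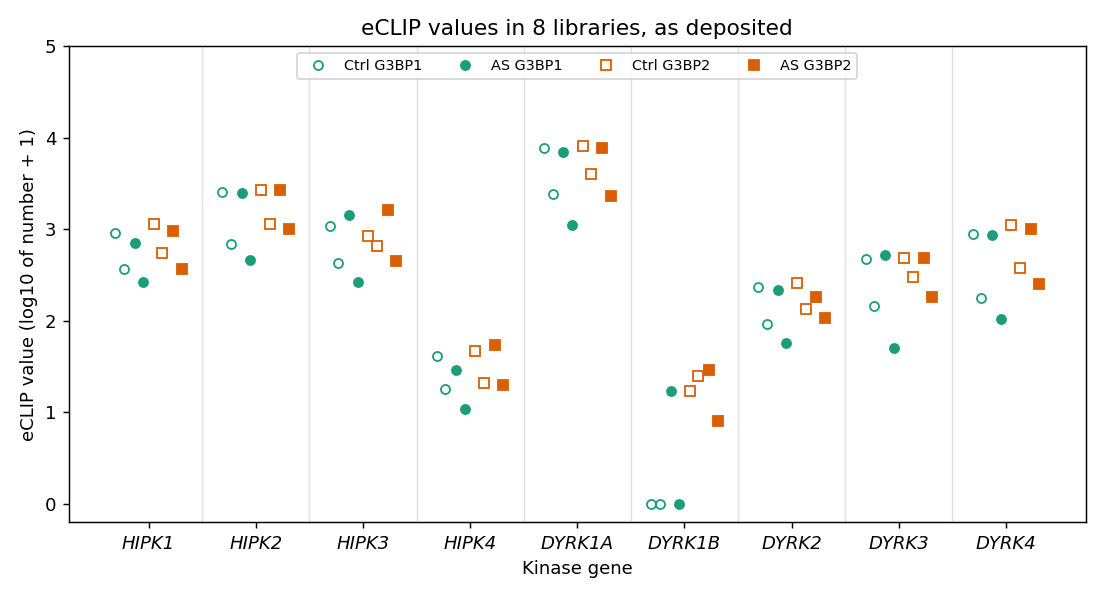
Deposited eCLIP values (log10 of the number plus 1) of the 9 kinases in 8 libraries, with open symbols for untreated and filled symbols for AS-treated cells, circles for G3BP1 and squares for G3BP2, and replicate 1 to the left of replicate 2 in each pair. DYRK1A is at the top in all 8 libraries, and DYRK1B is the lowest in 7 of them.

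For the test of AS, libraries were scaled to the same total and compared with limma (moderated test, intensity trend) with Benjamini-Hochberg adjustment over all genes. After scaling, DYRK1A had a mean log10 value of 3.65 ± 0.027 (SD, n = 2) in untreated and 3.57 ± 0.046 in AS-treated cells for G3BP1, and 3.65 ± 0.056 and 3.59 ± 0.0011 for G3BP2. Both AS libraries lay below both untreated ones for DYRK1A with either protein, as they did for 14.5% of genes with G3BP1 and 15.6% with G3BP2. The differences were -0.08 (95% interval -0.18 to 0.03, adjusted p = 0.996) and -0.06 (-0.15 to 0.04, adjusted p = 0.995) by limma. HIPK2 differed by 0.01 (-0.11 to 0.13) for G3BP1 and 0.04 (-0.08 to 0.17) for G3BP2. With G3BP1 no kinase had both AS libraries above both untreated ones, where 13.3% of genes did. HIPK4 was the member with both AS libraries above both untreated ones, for G3BP2, where 14.7% of genes were. Its difference there was 0.09 (-0.26 to 0.44).

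Over all genes, 0 passed an adjusted p of 0.05 by limma in either comparison. At an unadjusted p under 0.05 there were 490 of 18888 genes (2.59%) for G3BP1 and 635 of 19035 (3.34%) for G3BP2, and none of the kinases among them. DYRK1B was left out for G3BP1 by the minimum of 2 libraries above 0, having 1 of 4. The interaction of treatment and protein was not past the threshold for any kinase either (0 of 19259 genes adjusted, 150 or 0.779% unadjusted). Comparing G3BP2 with G3BP1 over both treatments gave 0 genes adjusted and 334 (1.73%) unadjusted. Among these was DYRK1B, higher with G3BP2 by 0.93 (0.34 to 1.52) with an adjusted p of 0.999 by limma, a value that rested on numbers near 0. The other 8 kinases differed by -0.04 to 0.08 between the proteins, with 95% intervals that lay between -0.23 and 0.29.

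The known partners and substrates of these kinases were taken as a list of 35 genes and the other CMGC kinases as a list of 56, both set with earlier results of these data known. In SG against Total, 26 of the 33 partners above 1 TPM were SG-enriched and 2 SG-depleted, where the shares over all genes were 62.9% and 9.45%, and the median log2 fold change was 2.74. CREBBP, a histone acetyltransferase that HIPK2 phosphorylates, was the highest, with 0.777 TPM in Total and 301 in SG. PSMC4, a proteasome subunit phosphorylated by DYRK2, was the lowest, with 144 and 67.1 TPM. Of 55 CMGC kinases, 41 were SG-enriched and 1 SG-depleted, beside the same shares over all genes, with a median of 1.75, nearer to the 1.51 of all genes. CDK6, a cyclin D kinase, was the highest with 7.96 and 404 TPM, and CDK5, a neuronal kinase that also acts on tau, the lowest with 79.8 and 16.3 TPM.

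After siG3BP1, 1 of 32 partners was called, MAPT, the gene of the DYRK1A substrate tau, with 13.6 TPM in siCtrl and 4.68 in siG3BP1, where 1.98% of all genes were called lower. After siG3BP2, 4 of 32 were called, all lower, as were 2.89% of all genes. MAPT had 1.86 TPM there. The acetyltransferases EP300 and CREBBP had 14.8 and 14.9 TPM in siCtrl, and 4.33 and 6.41 in siG3BP2. Of 51 CMGC kinases in siG3BP2, 4 were called lower and 1 higher, beside 2.89% and 1.23% of all genes. Among them CLK2 (31.0 to 13.2 TPM), CLK4 (5.48 to 2.09) and MAPK4 (5.18 to 0.180) were lower and MOK (0.850 to 3.18) higher. After AS, 3 of 32 partners were called higher and 1 lower, beside 3.64% and 0.56% of all genes. Summed RPKM of DAXX went from 0.426 to 7.76, of PSMC4 from 8.40 to 56.6 and of KATNA1 from 12.8 to 27.3. MAPT went from 9.09 to 0.700. In siCtrl DAXX had 22.3 TPM and PSMC4 153, far above their untreated RPKM, while KATNA1 had 9.75 and MAPT 13.6. The part of the library type in the low untreated values of DAXX and PSMC4 was not tested. Of 52 CMGC kinases, CLK1 (61.0 to 128 RPKM) and CDK7 (3.08 to 11.8) were called higher. List medians after AS were 0.30 for partners and 0.27 for CMGC kinases, beside 0.27 for all genes.

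The cell line label was checked in siCtrl against a list of markers. Of 11 markers of adrenergic neuroblastoma, 10 were above 1 TPM, with TH at 0.304 TPM. Of 6 markers of other cell types, PRRX1, PTPRC and GFAP were at 0 and EPCAM at 0.194 TPM, while TWIST1 was at 468 and COL1A1 at 12.6 TPM. The summed level of the first list was between 3305 and 6283 TPM over the 5 libraries, and that of the second between 353 and 898, with SG the highest for both.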

How the data were processed

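The 9 kinases and the gene lists were chosen with earlier results of these data known. For the siRNA, Total and SG libraries the authors aligned reads to GRCh38.p13 with HISAT2 (2.1.0 in the submitters' processing notes) and deposited TPM from StringTie for genes that code for protein. Reads of the rRNA-depleted pair went through fastp, HISAT2 and StringTie. Per transcript, the values the authors deposited for that pair carry a TPM header but behave as RPKM, since each times the transcript length is a whole multiple of 1 step (100% and 99.9993% of nonzero values, within 0.02 reads), corresponding to 13291958 reads in untreated and 11281587 in AS-treated cells. For eCLIP the authors used fastp, STAR and CLIPper with a size-matched input (SMInput). The deposited values are the log10 of a whole number with 1 added, rounded to 2 decimals, and which steps this number includes is not stated. The 4 SMInput samples were not analysed here. TPM gives no depth.

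Columns were assigned to samples by name. IDs were matched to GENCODE v44 (19910 of 19942 genes, 91.1% of 256980 transcripts), a later release than the authors'. Canonical transcripts and spans came from it. Folds used a pseudocount of 1, limits of 2 and 0.5 and a minimum of 1 in the higher library, without a test. RPKM were summed per gene for the call. eCLIP numbers were scaled to a common total and compared with limma 3.58.1 in R 4.3.3 over genes above 0 in at least 2 libraries. Everything else used Python 3.11.15 with scipy 1.17.1, matplotlib 3.10.9, pandas 2.3.3 and numpy 2.4.6. The fold rule and limma were tested on simulated data. Genes named are the 9 kinases, the 3 genes nearest to HIPK2, G3BP1 and G3BP2, the highest and lowest member of each list in SG among those above 10 TPM, list members called elsewhere where there were at most 5, and the markers. PLD3 was named after its overlap was seen. Alternatives covered pseudocounts, scaling, limits, minimum values, transcripts used, the replicate block and leaving out each eCLIP library. Some list members and motif matches that meet these rules are not reported here.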

Additional observations from a re-analysis of the deposited data

How the results depend on the processing

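SG to Total calls of the 9 kinases were 7 higher and 1 lower. With a pseudocount of 0.1 DYRK1B was added as higher (8), and with the median ratio set to 1 HIPK4 was lost (6 higher, 1 lower), while the counts over all genes went from 8528 higher and 1282 lower to 4505 and 3271. With a fold limit of 4 there were 6 higher and 0 lower. In siG3BP1 a pseudocount of 0.1 gave 1 lower (HIPK3), and a limit of 1.5 gave 1 higher (DYRK4) and 1 lower (HIPK3). In siG3BP2 both alternatives gave 2 lower (HIPK1 and HIPK3). After AS a limit of 1.5 gave 2 higher (HIPK3 and DYRK1A). Set to the median, calls over all genes after AS went from 462 higher and 71 lower to 237 and 98, and in siG3BP2 from 150 and 353 to 193 and 290. The 162 log2 folds of kinases under alternatives held 0 called values with another sign. Among values not called, DYRK1B in SG to Total turned from 0.98 to -0.45 with the median ratio set to 1. The transcript with the highest value per gene and the replicate block without scaling were added after seeing the data. In eCLIP, values as deposited gave 2 genes for the G3BP2 change after AS. Leaving out 1 library at a time gave between 0 and 8 genes for the interaction, the 8 without AS G3BP1 replicate 1, and 0 for the other tests. None of these was a kinase. Of 334 eCLIP estimates of kinases under alternatives, 61 had another sign than reported and 0 an adjusted p under 0.05 in limma, the lowest being 0.292. Per kb of canonical transcript in place of span, DYRK1A exceeded 84.3% of genes in place of 97.2%, and DYRK4 84.0% in place of 73.1%. HIPK1 went from 80.2% to 55.5%, DYRK2 from 65.0% to 24.8% and DYRK3 from 50.7% to 38.7%. HIPK2 went from 57.8% to 63.9%, HIPK3 from 60.5% to 63.7%, HIPK4 from 19.2% to 19.8% and DYRK1B from 8.28% to 11.6%.

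Replicate numbers were not shown to pair the Ctrl with the AS eCLIP libraries. Each comparison has 2 numbers, and deviations of same-numbered libraries correlated at 0.145 (Ctrl and AS, G3BP1) and 0.061 (G3BP2). Between the proteins they correlated more, at 0.426 (Ctrl) and 0.330 (AS), and what same-numbered libraries share there was not tested. With the replicate block 0 genes passed in each of the 4 tests, with 642, 689, 217 and 633 genes at an unadjusted p under 0.05 for the G3BP1 change, the G3BP2 change, the interaction and the protein difference. With 1 library per RNA-seq condition, no spread was available for any SG, knockdown or AS value.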
